A study of Homo sapiens with 34 samples.

Results

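The 10 genes described here set the pace of the G1 phase: the D-type cyclins CCND1, CCND2 and CCND3, the E-type cyclin CCNE1, the kinases CDK4 and CDK6, and the kinase inhibitors CDKN1A, CDKN1B, CDKN2B and CDKN2A. They were taken by name from 19974 protein-coding RefSeq genes (GRCh38.p14), and every listed ChIP-seq region within a gene or 50 kb of it was followed. In H3K27ac this gave 91 of 79987 regions in the induced list and 90 of 78005 in the uninduced list. In RNA polymerase II (Pol II) it gave 77 of 50665 induced and 76 of 57247 uninduced regions. The cells were DLD1, a human colorectal adenocarcinoma line, with a transgene that expresses dominant negative TCF7L2 when doxycycline is given. TCF7L2 is the factor through which β-catenin acts on Wnt target genes. Induced cells were given 1 µg/mL doxycycline for 24 h, and uninduced cells carried the same transgene without doxycycline. No doxycycline-treated DLD1 cells without the transgene were among the ChIP-seq samples, so the agent and the transgene cannot be told apart. Whether the line is 1 clone is not stated in the labels. The series held 34 samples, of which 24 were RNA-seq (not analysed here), 8 were ChIP-seq and 2 were inputs.

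In G1, a D-type cyclin bound to CDK4 or CDK6 begins to phosphorylate the retinoblastoma protein, and cyclin E with CDK2 carries this on, which frees E2F factors to transcribe genes of DNA replication. The INK4 inhibitors bind CDK4 and CDK6 alone, and the CIP/KIP inhibitors bind cyclin and kinase complexes more widely. In colorectal cancer cells with active Wnt signalling, TCF factors maintain a proliferative programme in which CCND1 has long been discussed as a target and CDKN1A as a gene that is repressed through MYC. H3K27ac marks active promoters and enhancers, and Pol II regions show where the polymerase is bound.

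Promoter sequences are shown for the inhibitors and CDK4. CCND3, whose starts also differed between the lists, is not among them. The sequences take in a CDKN2A start with no region of either mark beside one with both, and the CDKN2B start. They also take in a CDK4 start inside a Pol II region that was broken up in the induced list. The last sequences are those of the CDKN1A and CDKN1B starts, with the strongest Pol II or H3K27ac summits. Each is the 250 bases before a RefSeq start of GRCh38.p14, 5′ to 3′ on the gene's strand. Capitals mark matches, on either strand, to 3 of the 7 motifs searched: the GC box GGGCGG, the CCAAT box, and the E-box CACGTG.
CDKN2A start at 21974857, chr9:21974858-21975107, minus strand: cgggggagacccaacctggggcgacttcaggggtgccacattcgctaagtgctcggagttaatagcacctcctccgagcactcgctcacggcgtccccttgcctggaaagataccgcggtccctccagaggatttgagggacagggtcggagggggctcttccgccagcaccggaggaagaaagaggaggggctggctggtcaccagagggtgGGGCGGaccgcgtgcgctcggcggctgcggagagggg
CDKN2A start at 21995324, chr9:21995325-21995574, minus strand: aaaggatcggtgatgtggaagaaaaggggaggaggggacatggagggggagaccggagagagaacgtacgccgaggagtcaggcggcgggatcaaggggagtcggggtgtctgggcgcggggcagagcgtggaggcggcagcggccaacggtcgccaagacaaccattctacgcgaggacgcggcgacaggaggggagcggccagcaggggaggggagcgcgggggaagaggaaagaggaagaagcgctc
CDKN2B start, chr9:22009306-22009555, minus strand: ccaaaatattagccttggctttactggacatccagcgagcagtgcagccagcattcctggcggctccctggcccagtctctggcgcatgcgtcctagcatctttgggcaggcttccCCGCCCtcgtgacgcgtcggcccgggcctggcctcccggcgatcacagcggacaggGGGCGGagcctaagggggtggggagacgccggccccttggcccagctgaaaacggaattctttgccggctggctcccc
CDK4 start, chr12:57752311-57752560, minus strand: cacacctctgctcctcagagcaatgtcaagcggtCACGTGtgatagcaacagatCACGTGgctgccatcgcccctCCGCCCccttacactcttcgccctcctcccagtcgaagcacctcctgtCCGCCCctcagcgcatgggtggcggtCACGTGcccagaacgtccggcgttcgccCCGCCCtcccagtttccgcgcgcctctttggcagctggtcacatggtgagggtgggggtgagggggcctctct
CDKN1A start, chr6:36678464-36678713, plus strand: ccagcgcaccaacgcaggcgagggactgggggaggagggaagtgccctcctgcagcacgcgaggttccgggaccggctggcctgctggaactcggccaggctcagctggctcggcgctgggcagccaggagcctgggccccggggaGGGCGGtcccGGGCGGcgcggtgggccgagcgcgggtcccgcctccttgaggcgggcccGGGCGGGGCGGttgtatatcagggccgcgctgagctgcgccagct
CDKN1B start, chr12:12717118-12717367, plus strand: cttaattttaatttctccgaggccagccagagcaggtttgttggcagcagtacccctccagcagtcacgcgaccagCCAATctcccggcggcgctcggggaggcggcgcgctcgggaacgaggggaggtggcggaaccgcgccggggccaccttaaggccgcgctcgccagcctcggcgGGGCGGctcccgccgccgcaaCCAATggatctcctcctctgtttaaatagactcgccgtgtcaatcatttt

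The table of starts had 12 entries for 8 of the genes and was without CCND1 and CCND2. The E-box stood 3 times before the CDK4 start, at 216, 196 and 101 bases from it, and in none of the other 11 windows of these genes, while 7.37% of the windows before all 22156 starts of protein-coding genes held it. The GC box stood 4 times before the CDKN1A start, with 1 pair overlapping, and 7 times before the CCNE1 start, and 53.7% of all windows held it. The CCAAT box stood 2 times before the CDKN1B start and 1 time before 2 of the 3 CCND3 starts, against 32.7% of all windows. Before the CDKN2A start at 21995324 none of the 7 motifs was found, and before the start at 21974857 there was a single GC box. No window of the 12 held the TCF core CTTTGA (9.64% of all windows), the E2F site TTTCCCGC (1.73%), the AP-1 site TGANTCA (5.36%) or the CRE TGACGTCA (2.01%). These are matches of letters in a short window and not measured binding sites.

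Each antibody and condition had 2 samples, sequenced to between 40 and 55M single reads of 75 bp per sample, per the labels. The deposited files hold 1 list of regions for both samples, so no spread between samples could be measured, no test was made, and each value below is the authors' own value for a list. Fold enrichment is the height of a summit over the peak caller's background. It depends on the depth and the input of each list, which limits what a difference between the lists can show. Where a fold is given for a region it is that of its highest summit. The Pol II lists differed in extent, with 56.7 Mb covered in the induced and 70.9 Mb in the uninduced list. All 10 markers of colon epithelium, such as EPCAM and CDX2, had an H3K27ac summit at their start in both lists. Of the markers of blood and stroma 5 had one in both lists, with folds of 6.61 to 27.3 induced and 5.09 to 20.6 uninduced, and PTPRC, COL3A1, PDGFRB and CDH5 had none in either. For genes without a listed start the 1 kb at either end was used, where a neighbouring gene can also start. ACTA2, with folds of 27.3 induced and 14.6 uninduced, and CD14, with 11.7 and 10.4, were measured at their own start. The part of these genes in the results was not tested.

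Around the 10 genes most regions of both marks had an overlapping partner in the other list, with the lowest share for uninduced Pol II. In the induced list 5 of the 91 H3K27ac regions (5.49%) overlapped no uninduced region, and in the uninduced list 7 of 90 (7.78%) overlapped no induced one. Over the whole lists these shares were 12.3% and 14.5%. For Pol II, 4 of the 77 induced regions (5.19%) and 16 of the 76 uninduced regions (21.1%) had no partner, against 10.8% and 30.4% of all regions. At CDK6 4 of the 10 Pol II loci were in the uninduced list alone, beside 17409 of all 59924 Pol II loci. The regions without a partner were weak ones, with folds of 2.63 to 4.04 induced and 2.39 to 3.96 uninduced for H3K27ac, and of 2.93 to 3.44 induced and 2.44 to 4.15 uninduced for Pol II. The strongest of each list by −log10 q lay inside CDK6 (induced H3K27ac, chr7:92782506-92783645, fold 4.04), in the neighbouring APOLD1 beyond CDKN1B (uninduced H3K27ac, chr12:12737390-12737788, fold 3.96), inside CDKN1B (induced Pol II, chr12:12718915-12719541, fold 3.44) and 25.2 kb from CDKN1A (uninduced Pol II, chr6:36650558-36651277, fold 3.87).

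Where a region was present in both lists, regions that overlap were joined into 1 locus and their highest folds were set side by side. Of 76 paired H3K27ac loci 45 had a higher fold in the induced list and 31 (40.8%) a lower one, beside 55.7% higher and 44.3% lower of all paired loci. They had a median ratio, induced over uninduced, of 1.12, against 1.04 over all 62253 paired loci. A fold at least 1.5 times lower in the induced list was found at 6 of them (7.89%), beside 9.44% of all paired H3K27ac loci, and a fold at least 1.5 times higher at 10 (13.2%), beside 11.5%. Of 56 paired Pol II loci the induced fold was higher at 24 and lower at 32 (57.1%), beside 38.8% higher and 61.2% lower of all. The median ratio was 0.972, against 0.924 over all 37064. For Pol II 3 loci (5.36%) were at least 1.5 times lower and 3 (5.36%) at least 1.5 times higher, beside 12.5% and 4.2% of all paired Pol II loci. The H3K27ac shares near the genes were thus close to those of the whole lists, and for Pol II the lower share was under the whole-list share. The −log10 q of Pol II was lower in the induced list at 48 of the 56 loci (85.7%), beside 84.1% of all paired loci, and that of H3K27ac at 45 of the 76 (59.2%), beside 60.5%. In both marks the −log10 q was the lower one more often than the fold, near the genes and over the whole lists.

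**Figure D1:**
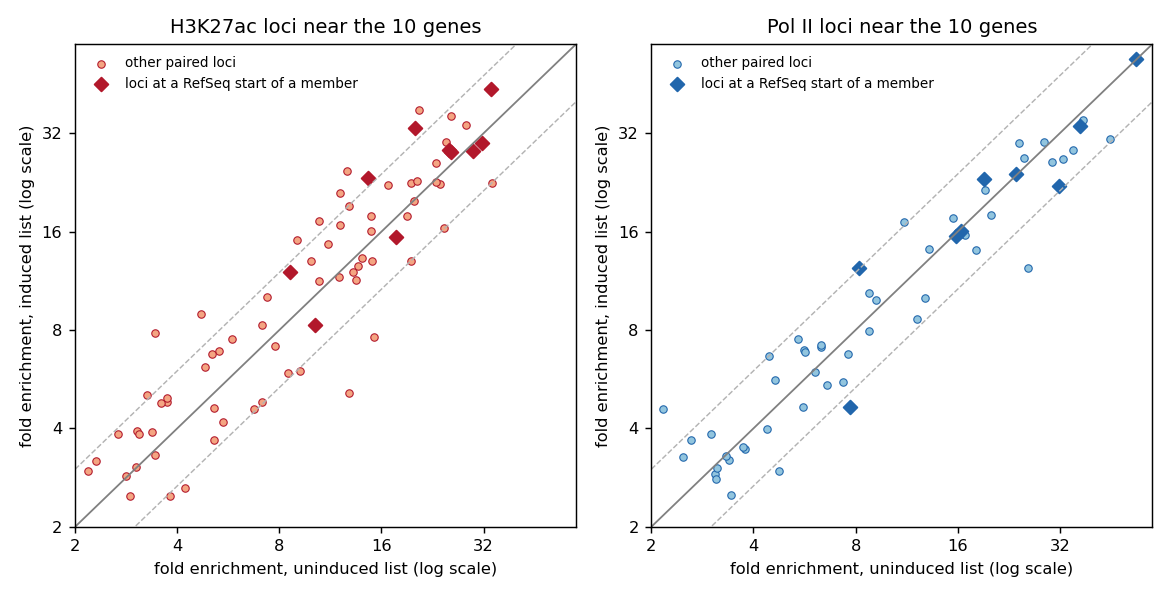
Fold enrichment of each paired locus within 50 kb of the 10 genes, in the induced list (vertical, log scale) against the uninduced list (horizontal, log scale), for H3K27ac on the left and Pol II on the right. The solid line marks equal folds and the dashed lines a ratio of 1.5 each way; diamonds are loci within 1 kb of a RefSeq start of the genes, and 10 H3K27ac and 3 Pol II loci reach the upper dashed line or lie above it.

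Both marks were paired at 42 loci, of which 0 were at least 1.5 times lower in both marks, beside 1.6% of 24961 such loci in all, and 2 at least 1.5 times higher in both, beside 1.55%. Among those higher in both is a locus inside APOLD1 whose uninduced Pol II region had a −log10 q of only 1.55. All loci past 1.5 times are named in the paragraphs that follow, including those singled out only because of their values.

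CCND1, the D-type cyclin most often amplified or overexpressed in tumours, lay inside a broad domain of both marks on chromosome 11 (gene at chr11:69641156-69654474). The domain was made up of 2 H3K27ac regions induced and 3 uninduced, and of 4 Pol II regions induced and 2 uninduced. H3K27ac covered 99.4% of the gene in the induced list and 98.0% in the uninduced list, and Pol II covered 97.8% and 98.4%. The H3K27ac locus ran over chr11:69635467-69656959, with a highest fold of 36.0 induced and 25.6 uninduced. Its longest region, of 13.6 kb induced and 14.0 kb uninduced, was the 218th longest of the induced and the 227th longest of the uninduced list. The Pol II region over most of the gene was 14.2 kb long induced and 16.4 kb uninduced, within the longest 0.0868% and 0.101% of their lists. So by length the domain stood near the top of every list in both conditions.

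Within that domain the Pol II folds at the 2 ends of CCND1 differed in opposite directions. At the low-coordinate end of the gene the Pol II summit had a fold of 30.8 induced and 37.4 uninduced. At the high-coordinate end, 13.6 kb away, the Pol II summit had a fold of 35.0 induced and 24.6 uninduced. Its −log10 q was nearly equal, 249.3 induced and 247.2 uninduced. On that side the domain also reaches within 1 kb of a start of the neighbouring LOC124902704. Between them the Pol II summits lay between 2.55 and 20.6 induced and between 3.7 and 18.1 uninduced, so both ends stood above the gene body in both lists. The strongest H3K27ac summit just below the low end had a fold of 33.4 induced and 23.6 uninduced. Near the high end the H3K27ac summits had folds of 25.3 induced and 17.6 uninduced. The H3K27ac fold was thus higher at both ends in the induced list, while the Pol II fold was lower at the low end and higher at the high end.

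Beyond CCND1 the strongest loci lay on its high-coordinate side, at LTO1 and FGF19, with none on the other side within 50 kb outside the domain. At the LTO1 start (chr11:69673250-69676263) H3K27ac had folds of 22.5 induced and 19.6 uninduced, and Pol II 30.1 and 28.8. Inside FGF19, which encodes a growth factor of bile acid signalling, H3K27ac at chr11:69698386-69704449 had 30.0 induced and 24.8 uninduced, and at chr11:69694456-69698268 12.6 and 13.6. Pol II there had 14.2 induced and 13.2 uninduced, and inside LTO1 7.08 and 6.32. Of 9 paired H3K27ac loci of CCND1 7 had a higher fold in the induced list, beside 55.7% of all paired H3K27ac loci. By −log10 q 6 of the 9 were higher. In fold, 0 of these or of the 7 paired Pol II loci passed 1.5 times.

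CCND2, another D-type cyclin, had no Pol II region over any of its 31592 bp in either list (gene at chr12:4273762-4305353). The Pol II summit nearest to its low-coordinate end was 34.4 kb away in both lists, and no H3K27ac summit lay within 1 kb of either end. It was the single member gene without Pol II coverage. The one H3K27ac locus inside the gene, at chr12:4278176-4281070, had the lowest H3K27ac ratio near any of the 10 genes: a fold of 5.13 induced and 12.8 uninduced, a ratio of 0.4. Its −log10 q was 11.9 induced and 58.7 uninduced, and the region that was 2.9 kb long in the uninduced list was replaced by 2 shorter ones in the induced list. No Pol II region overlapped it.

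A locus 2.17 kb above the high-coordinate end of CCND2 had a higher H3K27ac fold in the induced list, and Pol II folds that were close. At chr12:4307523-4309673 H3K27ac had folds of 19.1 induced and 12.8 uninduced, a ratio of 1.49. Pol II there had 9.86 induced and 9.17 uninduced, a ratio of 1.08, with a lower −log10 q induced (39.8) than uninduced (59.8). At the start of the next gene, TIGAR, which encodes a regulator of glycolysis, H3K27ac had 22.3 induced and 23.8 uninduced and Pol II 28.5 and 35.0. The H3K27ac at CCND2 thus went in opposite directions inside the gene and just beyond it, and Pol II was listed only beyond it.

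CCND3, the remaining D-type cyclin (gene at chr6:41934933-42050035, minus strand), has 3 RefSeq starts, of which 2 carried both marks. At the start at 41941808, near the low-coordinate end, H3K27ac had a fold of 23.4 induced and 14.6 uninduced, a ratio of 1.6, and Pol II had 33.6 and 36.8. At the distal start at 42048688 the highest summits within 1 kb had H3K27ac folds of 15.4 induced and 8.43 uninduced and Pol II folds of 12.4 and 8.16, a Pol II ratio of 1.52. The start at 41939205 had neither mark within 1 kb, and the nearest H3K27ac summit was 2.01 kb away induced and 2.04 kb uninduced. Its promoter window held 3 CpG, against a median of 16 over all windows.

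At the distal end the values depended on which summit was taken. The whole H3K27ac locus, chr6:42048067-42051605, reaches to the start of the neighbouring TAF8 and had its highest fold there in the uninduced list, so over the whole locus the folds were 15.4 induced and 17.6 uninduced. The Pol II region on the TAF8 side, chr6:42050101-42051266, had 26.6 induced and 32.6 uninduced, lower in the induced list, while the region at the CCND3 start beside it was higher. Beyond TAF8, inside C6orf132 and 47.9 kb from CCND3, the locus at chr6:42097897-42102412 was higher in both marks, with H3K27ac folds of 24.6 induced and 12.7 uninduced and Pol II folds of 17.1 and 11.1. On the other side, at the starts of BYSL and MED20, H3K27ac had 22.2 induced and 16.7 uninduced and Pol II 21.4 and 19.2. Inside CCND3, H3K27ac at chr6:41965898-41968984 had 22.9 induced and 20.4 uninduced, with Pol II folds of 5.94 and 6.09. Pol II covered 4.99% of the gene induced and 5.96% uninduced, and H3K27ac 8.83% and 8.92%.

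CCNE1, which activates CDK2 at the end of G1 (gene at chr19:29811991-29824312, plus strand), had a lower Pol II summit at its start in the induced list. The Pol II fold was 22.0 induced and 31.8 uninduced, a ratio of 0.694, with a −log10 q of 107.0 and 209.4. H3K27ac at the same start had 28.0 induced and 25.7 uninduced. Pol II covered 5.32% of the gene induced and 6.0% uninduced. At all 5 paired Pol II loci of CCNE1 the induced fold was the lower one, with a median ratio of 0.78, though none by 1.5 times; over the whole lists 61.2% of paired Pol II loci were lower. Further Pol II regions, at chr19:29827186-29827649 and chr19:29828173-29828499, were in the induced list alone, each with a fold of 3.32, and 1 at chr19:29873385-29873722, with a fold of 4.15, was in the uninduced list alone.

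The loci beyond CCNE1 lay in a stretch with no other protein-coding gene over them. At chr19:29844263-29846381, 20.0 kb above the gene, H3K27ac had 16.8 induced and 12.1 uninduced, and Pol II 10.0 and 12.8. At chr19:29840501-29842819 H3K27ac had 12.0 induced and 13.2 uninduced, and Pol II 8.67 and 12.1. At chr19:29872965-29873922 H3K27ac had 13.0 induced and 15.0 uninduced. A nearer locus 6.52 kb above the gene had Pol II folds of 3.99 induced and 4.38 uninduced. The weak loci went both ways past 1.5 times: one 39.6 kb below the gene had H3K27ac folds of 2.49 induced and 3.82 uninduced, and one 46.7 kb above it had 5.06 and 3.25.

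**Figure D2:**
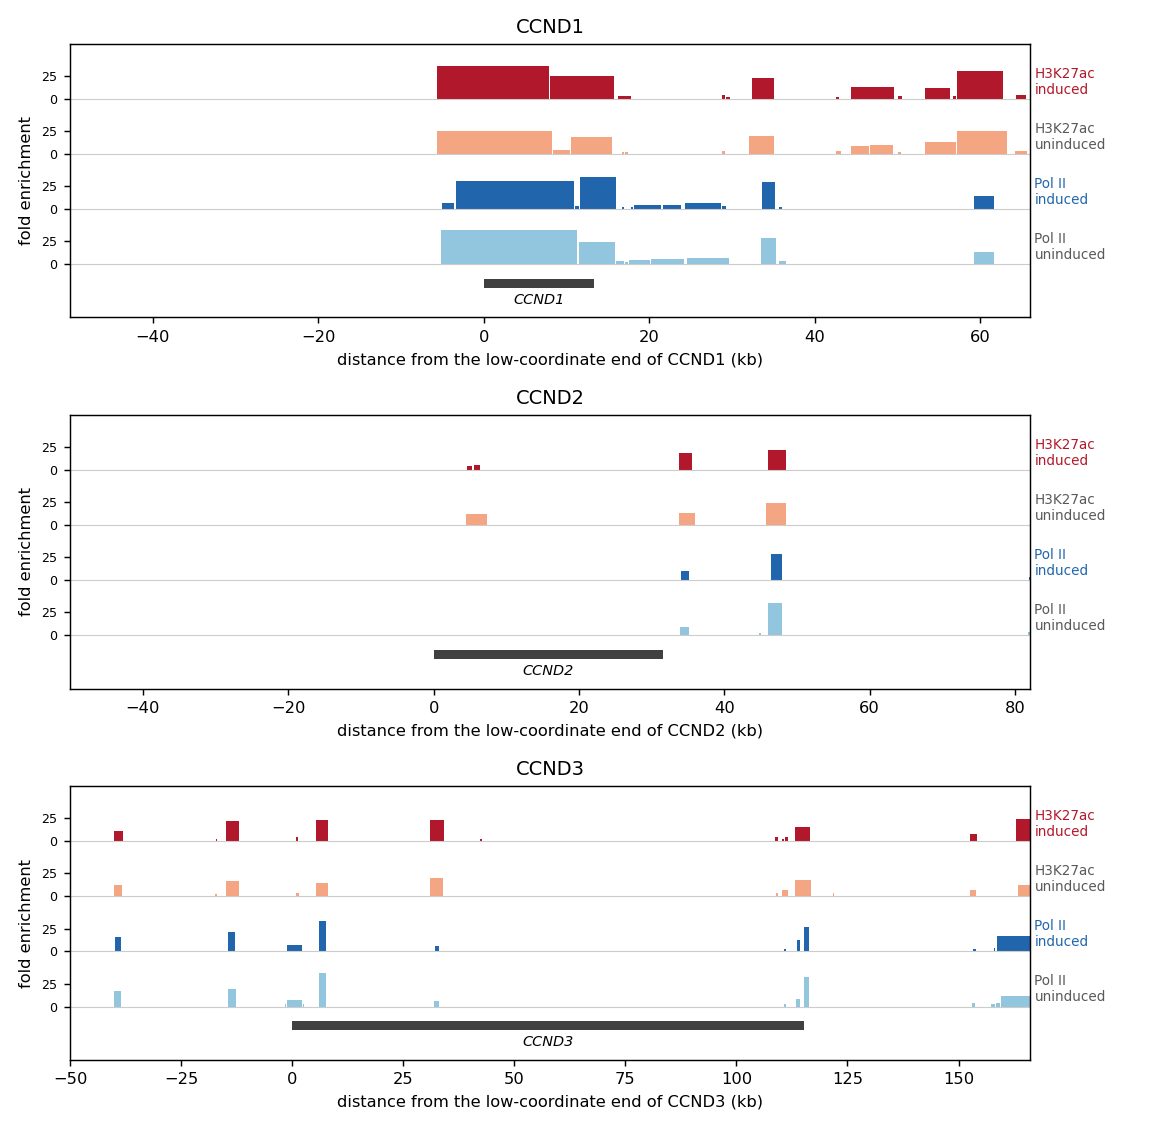
Regions of the 4 lists around CCND1, CCND2 and CCND3, with distance from the low-coordinate end of each gene in kb on the horizontal axis and the highest fold enrichment of each region as its height, induced above uninduced for each mark. Dark bars at the bottom are the genes. CCND1 lies under a broad domain of both marks that is made up of several regions. CCND2 has no Pol II region and an H3K27ac locus of fold 5.13 induced and 12.8 uninduced.

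CDK4, a catalytic partner of the D-type cyclins (gene at chr12:57747727-57752310, minus strand), was covered by Pol II over its whole length in the uninduced list and over 71.7% in the induced list. A coverage lower by over 25 percentage points was found at 1 of the 9 genes that could be scored, beside 0.866% of all scored genes. With 1 kb added at both gene ends the difference was −21.7 points, which is under that limit. The difference came from 3 stretches inside the gene that were under the single uninduced region and under none of the 4 induced regions: chr12:57748820-57748911 (92 bp), chr12:57749322-57749919 (598 bp) and chr12:57750414-57751018 (605 bp). The uninduced summits inside these stretches had folds of 3.61 at 57748877, 4.54 at 57749823, 3.42 at 57750518 and 4.03 at 57750850. The induced summits that were listed inside the gene away from the start had folds of 3.51 to 4.81. Counting only regions whose −log10 q was 5 or more, the coverage difference was −48.0 points. The uninduced region is 1 piece with the −log10 q of its start summit, 157.9, so this limit could remove only the induced pieces. The uninduced summits in these stretches were thus well below the start summit, whose fold was 19.3. Such splitting was not particular to CDK4. Next to it, Pol II at chr12:57756755-57763795 was 3 regions induced and 1 uninduced. Beside CDKN1B, chr12:12722157-12727237 was also 3 and 1, and below CDK6, chr7:92554290-92558497 was 5 and 1. Inside CCND3, chr6:41933677-41937221 went the other way, with 1 induced and 2 uninduced.

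At the CDK4 start the Pol II fold was not lower. It was 24.0 induced and 19.3 uninduced, a ratio of 1.25, and H3K27ac had 28.2 and 29.8. H3K27ac covered 26.7% of the gene induced and 32.2% uninduced. TSPAN31, a tetraspanin gene at chr12:57745039-57750219, overlaps the far end of CDK4 by 2493 bp, and ChIP-seq does not tell the genes apart there. Pol II covered 86.7% of TSPAN31 induced and 100% uninduced. The stretches of 92 and 598 bp lie in both genes and that of 605 bp in CDK4 alone. On the whole locus, chr12:57744162-57753627, the highest Pol II folds were 24.0 induced and 23.7 uninduced.

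The genes next to CDK4 held 3 of the 10 H3K27ac loci that were at least 1.5 times higher in the induced list. At MARCHF9, whose locus begins 0.301 kb above CDK4 (chr12:57752611-57756584), H3K27ac had folds of 33.2 induced and 20.1 uninduced, a ratio of 1.65, and the Pol II locus beside it had 17.6 and 15.5. At METTL1 and EEF1AKMT3 (chr12:57770927-57773781) H3K27ac had 37.7 induced and 20.7 uninduced, a ratio of 1.82, with Pol II folds of 26.9 and 25.1. At the TSFM start (chr12:57782084-57783828) H3K27ac had 21.0 induced and 12.1 uninduced, a ratio of 1.74, and Pol II had 29.9 and 24.3. At AGAP2, on the other side, H3K27ac had 25.9 induced and 23.1 uninduced and Pol II 26.2 and 30.4. At the highest H3K27ac summit within 1 kb of the CDK4 start the ratio was 0.945. The MARCHF9 locus also reaches within 1 kb of that start, and its summit there had 10.9 induced and 8.39 uninduced. The folds that passed 1.5 times were at summits farther off, at the neighbours.

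CDK6, the other kinase partner of the D-type cyclins, is the longest of the genes (chr7:92604921-92836573, 231653 bp, minus strand). With the 50 kb around it, it had the most H3K27ac loci, 17 of them paired. At the start at 92833959 H3K27ac had folds of 29.9 induced and 31.7 uninduced, and Pol II 15.5 and 15.8. At the start at 92836573 Pol II had 10.3 induced and 14.8 uninduced, a ratio of 0.696. The non-coding gene CDK6-AS1 overlaps CDK6 by 91 bp at that start, and these Pol II summits (92836619 and 92836635) lie inside it. Signal at that start is thus shared with CDK6-AS1. The H3K27ac summit nearest to that start had 9.65 induced (92836656) and 7.69 uninduced (92836632). Inside the gene but within 1 kb of it, a further H3K27ac summit had 7.64 induced (92835831) and 12.7 uninduced (92835823), so the summits on either side of this start differed in opposite directions, and the highest ones within 1 kb, 9.65 and 12.7, lay in different places. The start that carried the stronger summits therefore differed little between the lists. Pol II covered 2.9% of the gene induced and 3.35% uninduced, and H3K27ac 15.5% and 15.3%.

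Inside CDK6 one H3K27ac locus had a fold like that at the start. At chr7:92643190-92648826, far from the starts in the gene body, H3K27ac had a fold of 33.9 induced and 28.3 uninduced. A Pol II region there had 6.95 and 5.62. At chr7:92691772-92698215 H3K27ac had 19.8 induced and 20.0 uninduced, and Pol II 6.65 and 4.46. Of the 17 paired H3K27ac loci in the gene or within 50 kb of it, 12 had a higher fold in the induced list and 5 a lower one. Over the whole lists 55.7% of paired H3K27ac loci had a higher fold. By −log10 q 7 of the 17 were higher in the induced list and 10 lower, beside 60.5% lower of all. The 17 loci include those at and near FAM133B, below the gene. Past 1.5 times were chr7:92736824-92741531, lower with 13.0 induced and 19.6 uninduced, and 2 higher ones: chr7:92751873-92752431 with 7.84 induced and 3.45 uninduced, the highest H3K27ac ratio near the 10 genes at 2.27, and chr7:92809210-92810597 with 8.96 induced and 4.69 uninduced. The loci inside the gene thus went both ways. At the start of the neighbouring FAM133B, H3K27ac had 22.7 induced and 23.2 uninduced and Pol II 30.8 and 45.0.

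**Figure D3:**
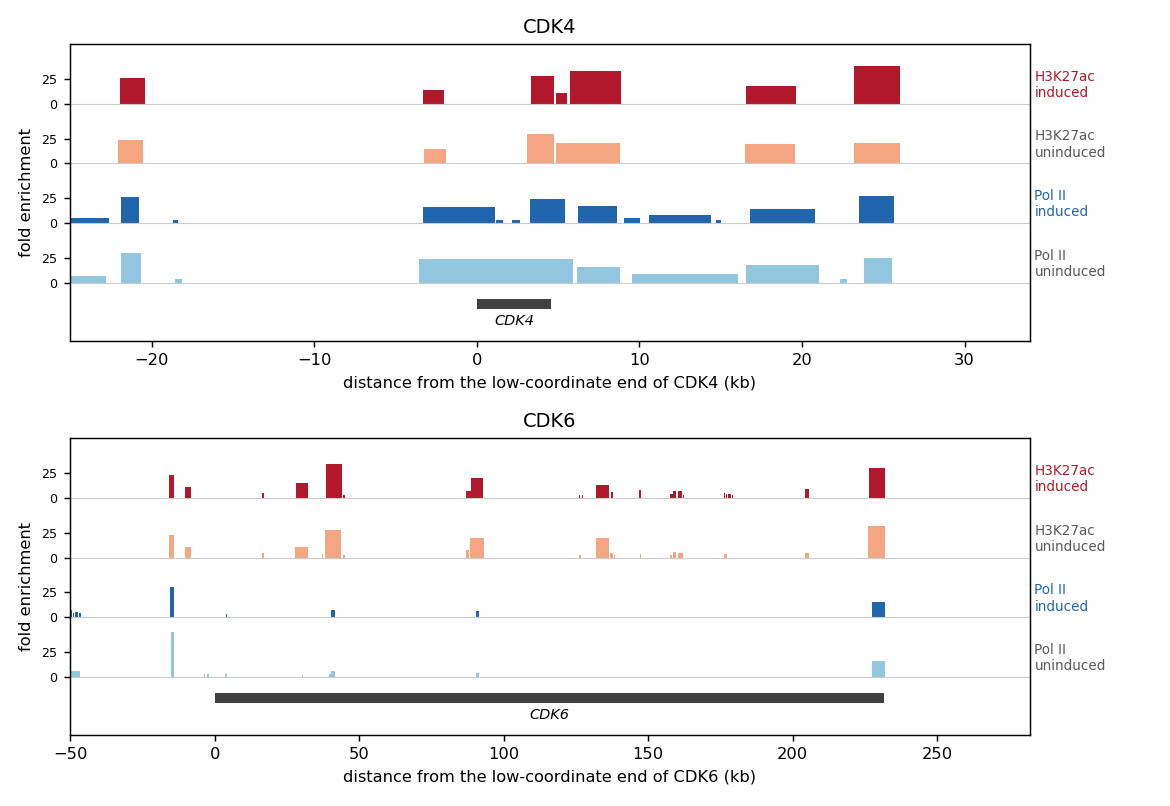
Regions of the 4 lists around CDK4 and CDK6, with distance from the low-coordinate end of each gene in kb on the horizontal axis and the highest fold enrichment of each region as its height, induced above uninduced for each mark. The single uninduced Pol II region over CDK4 stands beside 4 induced regions with 3 gaps inside the gene, and the CDK6 body holds an H3K27ac locus of fold 33.9 induced and 28.3 uninduced.

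CDKN1A encodes p21, the CIP/KIP inhibitor through which p53 halts the cycle (gene at chr6:36676463-36687332, plus strand). Its start had the highest Pol II fold near the 10 genes, and the values were nearly the same: 53.8 induced and 53.5 uninduced, at summits 45 and 41 bp after the start. By −log10 q, 370.5 induced and 461.0 uninduced, that region ranked 158th of 50665 in the induced and 109th of 57247 in the uninduced list. H3K27ac at the start had a highest fold of 26.8 induced and 24.1 uninduced within 1 kb. Past the other end of the gene, 0.33 kb beyond it, a Pol II region at chr6:36687662-36689824 had 10.4 induced and 8.78 uninduced. Pol II covered 28.6% of the gene induced and 29.1% uninduced, and H3K27ac 62.3% and 64.0%. DINOL, a non-coding gene of 951 bp, lies wholly within CDKN1A next to this start, and its signal cannot be told apart.

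The loci before CDKN1A went in different directions. The farthest, at chr6:36632822-36635803 and 40.7 kb from the gene, had lower folds of both marks in the induced list: H3K27ac 16.4 induced and 24.5 uninduced, a ratio of 0.67 and so just short of 1.5 times, and Pol II 2.97 and 4.75, a ratio of 0.625. At chr6:36642034-36644186, 32.3 kb from the gene, H3K27ac was higher, with 15.1 induced and 9.0 uninduced, and Pol II had 5.63 and 4.63. At chr6:36665756-36668555, the nearest of these, H3K27ac had 17.9 induced and 14.9 uninduced, and Pol II 7.52 and 5.42. At chr6:36649530-36652609 H3K27ac had 11.4 induced and 13.5 uninduced. The locus at 36632822 thus had a far higher H3K27ac fold than the one at 36642034 in the uninduced list, and in the induced list the folds were close.

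CDKN1B encodes p27, the CIP/KIP inhibitor that restrains cyclin E and CDK2 in resting cells (gene at chr12:12717368-12722369, plus strand). H3K27ac covered 100% of the gene in both lists, inside a domain, chr12:12712105-12731231, whose region of 17.4 kb induced and 19.1 kb uninduced was the 98th and the 75th longest of its list. The domain also spans the APOLD1 start. By −log10 q that region ranked 136th of 79987 induced and 84th of 78005 uninduced, from a summit beyond CDKN1B on the APOLD1 side with 311.8 induced (12724474) and 334.9 uninduced (12724429). The summit at the CDKN1B start had 303.7 induced and 311.1 uninduced. At the start the H3K27ac fold was 43.7 induced and 33.0 uninduced, the highest H3K27ac fold at a start of these genes. The Pol II fold there was 23.2 induced and 19.1 uninduced. The H3K27ac summits (12716854 induced, 12716835 uninduced) and Pol II summits (12716999 and 12717079) lie inside the neighbouring GPR19 (chr12:12660890-12717246). Their signal thus cannot be assigned to CDKN1B alone. All H3K27ac summits in the gene and 1 kb around it had folds of 12.6 to 43.7 induced and 9.47 to 33.0 uninduced. CDKN1B was the only scored member with more of its length under Pol II in the induced list, 63.4% against 59.2% uninduced. With the weak Pol II region named above the induced list alone covered 627 bp of it, and when only regions whose −log10 q was 5 or more were counted, the difference was −8.3 points.

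The neighbours of CDKN1B differed in direction. Inside GPR19, 19.4 kb below the gene, the locus at chr12:12695476-12698015 had the lowest Pol II ratio near the 10 genes, 0.484, with 12.4 induced and 25.7 uninduced. H3K27ac there had 22.5 induced and 33.8 uninduced, a ratio of 0.667 that just missed 1.5 times. Inside APOLD1, 9.97 kb above the gene, the locus at chr12:12732340-12737157 was higher in both marks. H3K27ac had 17.3 induced and 10.5 uninduced, and Pol II 4.59 and 2.17, the highest Pol II ratio at 2.12. That ratio rests on an uninduced Pol II region with a −log10 q of 1.55, near the lists' limit. Its summit (12735351) also lay apart from the induced one (12734877). Other loci differed less. H3K27ac at chr12:12703227-12705408 had 16.1 induced and 14.9 uninduced, Pol II between the gene and the APOLD1 start (chr12:12722157-12727237) had 18.0 and 20.1, and Pol II inside the gene (chr12:12720525-12721960) had 6.86 and 5.69.

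CDKN2B encodes p15 and CDKN2A encodes p16 and, from its other start, ARF, which acts through MDM2 and p53. They lie side by side on chromosome 9 (CDKN2A at chr9:21967752-21995324 and CDKN2B at chr9:22002903-22009313, both minus strand), where p16 is often silenced by promoter methylation in colorectal tumours. At the CDKN2B start the Pol II fold was 16.1 induced and 16.4 uninduced, and the H3K27ac fold 12.0 and 8.61. At the CDKN2A start at 21995324, that of ARF, Pol II had 4.65 induced and 7.68 uninduced, a ratio of 0.605, and H3K27ac had 8.3 and 10.2. At the start at 21974857, that of p16, neither list had an H3K27ac or Pol II summit within 1 kb. The nearest H3K27ac summit was 9.45 kb away induced and 9.4 kb uninduced, and the nearest Pol II summit 9.29 and 9.32 kb. The p16 window shown above held 20 CpG and the ARF window 24. The non-coding gene CDKN2B-AS1 overlaps CDKN2A by 534 bp and all of CDKN2B, so signal at the ARF start is shared with it.

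Across the windows of both INK4 genes 7 of 8 paired H3K27ac loci and 3 of 3 Pol II loci had the lower fold after induction, with median ratios of 0.743 and 0.823. Over the whole lists 44.3% of paired H3K27ac and 61.2% of paired Pol II loci were lower. The CDKN2B start was the H3K27ac exception. The windows held 3 of the 6 H3K27ac loci near the 10 genes that were at least 1.5 times lower in the induced list. At chr9:22052007-22053929, 42.7 kb above CDKN2B, H3K27ac had folds of 7.62 induced and 15.2 uninduced, a ratio of 0.502. At chr9:21964925-21965988, 1.76 kb below CDKN2A, it had 6.01 induced and 9.19 uninduced, with Pol II folds of 5.43 and 6.59. At chr9:22029998-22030562 it had 2.63 induced and 4.23 uninduced. The other loci were lower by less: chr9:22039869-22042828 with 7.14 induced and 7.77 uninduced, and 2 inside MTAP, at 21919446 with 4.18 and 5.44 and at 21932836 with 3.68 and 5.13. No H3K27ac fold in these windows was above 12.0 induced or 15.2 uninduced. The median fold of all H3K27ac regions was 6.22 induced and 6.35 uninduced, so some of these loci stood above it.

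**Figure D4:**
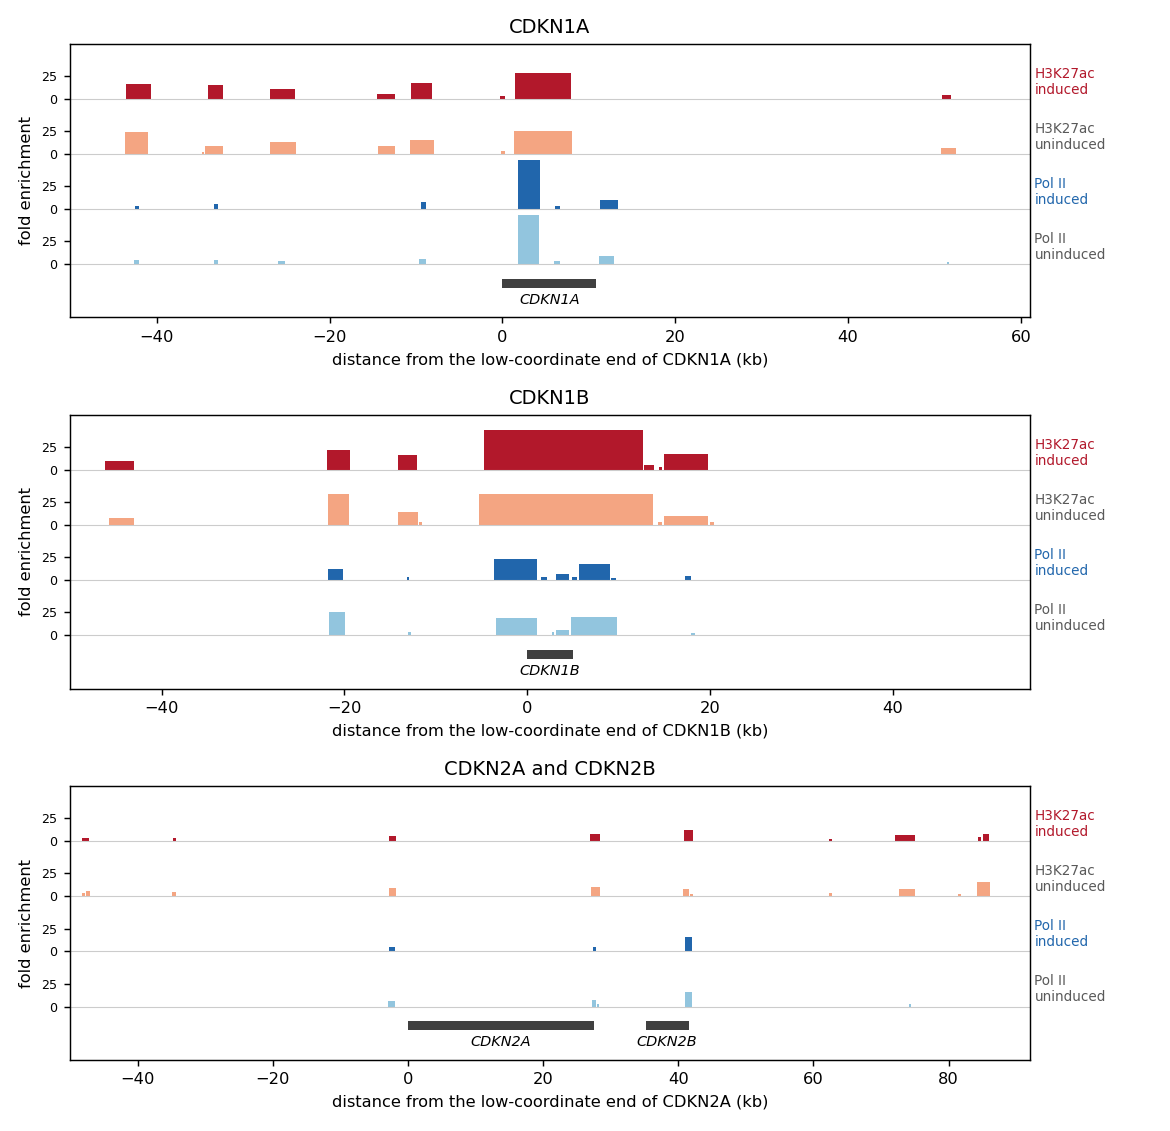
Regions of the 4 lists around CDKN1A, CDKN1B and the neighbours CDKN2A and CDKN2B, with distance from the low-coordinate end of the named gene in kb on the horizontal axis and the highest fold enrichment of each region as its height, induced above uninduced for each mark. The CDKN1A start reaches a Pol II fold of 53.8 induced and 53.5 uninduced, and the middle of CDKN2A has no region.

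The starts of these genes were also set beside those of all protein-coding genes. Summits within 1 kb in both lists were found at 10 of the 12 RefSeq starts for each mark. The median H3K27ac ratio at these 10 was 1.1, against 1.12 at 13578 starts of all protein-coding genes. In H3K27ac 0 starts were at least 1.5 times lower, beside 3.26% of all, and 2 were at least 1.5 times higher, both of CCND3, beside 13.7%. The median Pol II ratio was 0.983, against 0.946 at 13273 starts. In Pol II 1 start was at least 1.5 times lower, that of ARF, beside 11.1% of all, and 1 at least 1.5 times higher, the distal start of CCND3, beside 5.81%. From high to low, the Pol II fold at the strongest start of each gene, with CCND1 at its low end, ran in the induced list from CDKN1A through CCND3, CCND1, CDK4, CDKN1B, CCNE1, CDKN2B and CDK6 to CDKN2A. In the uninduced list CCND1 stood above CCND3, and CCNE1 above CDK4 and CDKN1B, and the rest of the order was the same. Which neighbours in that order differ beyond the spread between samples could not be measured. This measure at starts was chosen after the values were seen.

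By gene coverage, 8 of the 9 scored members had less of their length under Pol II in the induced list (88.9%), which is to be read beside 77.9% of 14091 scored genes. Their median difference was −0.534 percentage points, against −0.507 over all scored genes. Besides the values above, Pol II covered 7.99% of CDKN2B induced and 8.08% uninduced, and 0.812% of CDKN2A and 1.23%. For H3K27ac, CCNE1 had 9.94% induced and 10.3% uninduced, CDKN2B 12.2% and 13.3%, CDKN2A 2.42% and 1.97%, and CCND2 4.64% and 9.16%. CDK4 thus differed most in both marks, followed in H3K27ac by CCND2.

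**Figure D5:**
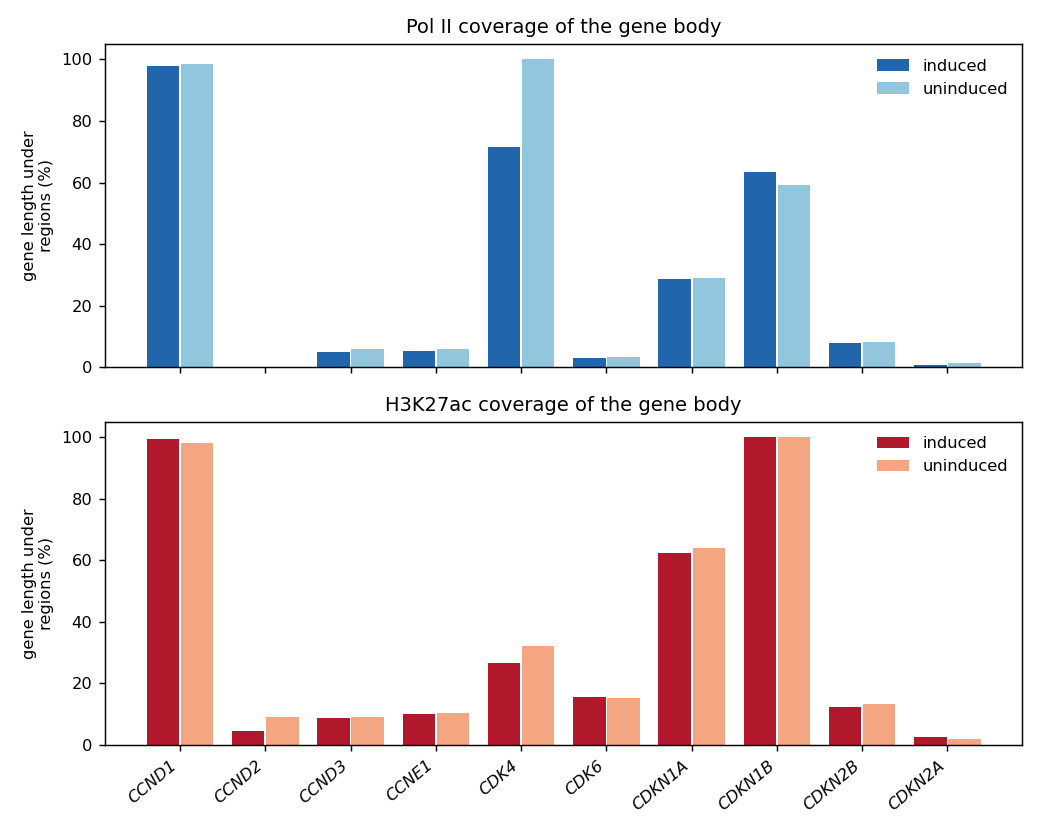
Percent of each gene's length under Pol II regions (upper panel) and H3K27ac regions (lower panel), with the induced list as the darker left bar and the uninduced list as the lighter right bar. CDK4 has 71.7% induced and 100% uninduced under Pol II, and the other genes differ by 4.24 percentage points or less.

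Other genes of the G1/S transition were compared by the same measure. All 30 genes of the list could be scored, and 21 had less Pol II coverage in the induced list and 9 more (70.0% lower), with a median difference of −0.208 points. None was lower by over 25 points. The largest lower values were those of CDKN1C, a further CIP/KIP inhibitor, with 66.6% induced and 75.7% uninduced, CDK2, the kinase partner of cyclin E, with 6.96% and 14.3%, CCNE2, the other E-type cyclin, with 19.9% and 26.9%, and CKS1B, which helps to degrade p27, with 34.7% and 41.3%. The largest higher values were those of E2F4, a repressive E2F factor, with 19.5% induced and 13.6% uninduced, CCNA2, the S-phase cyclin, with 34.7% and 31.8%, and the activating factors E2F2, with 8.11% and 6.69%, and E2F1, with 15.4% and 14.7%. Lower coverage was the usual direction, at 77.9% of all scored genes, and each of these differences was smaller than that of CDK4.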

How the data were processed

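Chromatin immunoprecipitation with antibodies to H3K27ac and Pol II was sequenced in induced and uninduced DLD1 cells. Per the submitters' processing notes, which give no roles or order, MACS2 (version 2.1.1.20160309), deepTools (3.5.0), SAMtools (1.10) and BWA (0.7.17-r1188) were used. In the deposited lists the authors list for every summit its fold (height relative to the background that the peak caller estimated) and a −log10 q. The deposited summit files repeat the positions and −log10 q values. The sources used here do not give the caller's settings, nor whether reads of the 2 samples were pooled.

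Rows of a region were collapsed to 1, and positions are 1-based on GRCh38. Summits outside the 22 autosomes and X, at most 0.603% of a list, were left out. Regions of both conditions that share at least 1 bp formed a locus; counts of regions without a partner equalled those of bedtools 2.31.1. Coverage was scored for genes of 2 kb or more with Pol II in either list. Scripts used Python 3.11.15, pandas 2.3.3 and numpy 2.4.6 and were tested on simulated data. RefSeq supplied genes, starts and sequences.

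The 10 genes and all lists were chosen with earlier results of these data known. One marker of blood and stroma is not reported here. The regions described for a gene and mark are those at its start and up to 3 others by −log10 q, and the G1/S genes named are the 4 with the largest coverage difference each way; regions outside this rule were picked after their values were seen. Alternatives changed the −log10 q limit, list length, overlap, window, threshold, scaling and choice of summit.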

Additional observations from a re-analysis of the deposited data

How the results depend on the processing

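The number of genes with lower Pol II coverage in the induced list was 8 or 9 under every alternative tried. With 9 genes scored it could not have been higher, and the genes that made it up were not always the same. For single genes, CDKN1B, with a difference of 4.24 points, had −8.3 when only regions whose −log10 q was 5 or more were counted and −3.62 when it was 10 or more, and CDKN1A, with −0.534, had 0.285 at the limit of 10. CDK4, with −28.3, had −48.0 at both limits, which could remove only its split induced regions, and −21.7 with 1 kb added at both gene ends, short of the 25 points used to call it. With summits taken within 5 kb of a gene, the ratio of the strongest H3K27ac summit was 1.49 at CCND2 and 1.11 at CDK4, in place of 0.4 and 0.945, since that window takes in other loci.

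Counts of regions without a partner (5 induced and 7 uninduced for H3K27ac, 4 induced and 16 uninduced for Pol II) moved with the limits. With regions within 1 kb taken as shared they were 2 and 3 for H3K27ac, and 1 and 8 for Pol II. With a −log10 q of at least 5 they were 1 and 2, and 0 and 5. With a 100 kb window they were 16 and 16, and 9 and 31. With a 10 kb window the uninduced counts were 3 for H3K27ac and 9 for Pol II, and with overlap over 0.5 of the shorter region the induced Pol II count was 8. Loci past 1.5 times (6 lower and 10 higher for H3K27ac, 3 and 3 for Pol II) became 3 lower and 5 higher, and 1 and 1, in a 10 kb window. At a threshold of 2 times they were 1 and 1 for H3K27ac and 1 and 1 for Pol II. With folds divided by the median ratio of all paired loci, 10 H3K27ac loci were lower and 6 Pol II loci higher. For changes other than those of window, limit or threshold the cause was not tested.

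No paired analysis was possible because each condition has 1 list for both samples. The depth of each list is unknown beyond the range per sample. The lists begin at a −log10 q of about 1.3, and regions without a partner reached 7.54 induced and 8.51 uninduced for H3K27ac and 4.3 induced and 10.3 uninduced for Pol II. A region that is not listed was not detectable at the lists' limit, which does not show that it is absent.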

Other observations

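Some genes beside the G1 genes also had unlike values in the 2 lists. At the start of FAM133B, below CDK6, the −log10 q of Pol II was 216.0 induced and 344.1 uninduced, with a fold ratio of 0.684, while H3K27ac there had a ratio of 0.977. At C6orf132, beyond CCND3, the −log10 q of H3K27ac was 132.8 induced and 88.3 uninduced and that of Pol II 76.3 and 52.0, so both measures and both marks were higher in the induced list. At METTL1 and EEF1AKMT3, beyond CDK4, the −log10 q of H3K27ac was 237.9 induced and 212.0 uninduced, with a Pol II ratio of 1.07. At CYP27B1, which encodes the enzyme that activates vitamin D, the Pol II fold was 14.1 induced and 18.1 uninduced and the H3K27ac fold 17.8 and 19.0. These loci were picked after their values were seen.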
